A study of Rattus norvegicus with 6 samples.

Results

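The chondroitin sulfate proteoglycans and the small leucine-rich proteoglycans (SLRPs) of the rat sciatic nerve were followed through the first week after a crush. The 10 genes were chosen by name: Vcan, Ncan, Bcan, Acan, Cspg4 and Ptprz1 among the chondroitin sulfate proteoglycans, and Dcn, Bgn, Lum and Fmod among the SLRPs. They are 10 of the 30957 genes in the mRNA table, each matched 1 gene, and all 10 passed the low-count filter that left 15195 genes for testing. The series held 3 groups of 2 Sprague-Dawley rats aged 1 month: controls, rats taken 4 days after crush (D4) and rats taken 7 days after crush (D7). In the injured rats the left sciatic nerve was clamped at its middle with hemostatic forceps. The study's methods describe the control rats as operated without the clamp, whereas the labels call them normal controls, so whether the control nerves carry an operation is uncertain. One library of ribosome-depleted total RNA was sequenced per rat from whole nerve tissue.

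A proteoglycan is a core protein that carries sulfated sugar chains. Versican (Vcan), neurocan (Ncan), brevican (Bcan) and aggrecan (Acan) are lecticans, secreted core proteins that bind hyaluronan at one end and tenascins at the other, and their chondroitin sulfate chains are known to restrain growing axons. Cspg4 (NG2) and Ptprz1, a receptor tyrosine phosphatase, span the cell membrane, and the extracellular part of Ptprz1 is also secreted as phosphacan. The SLRPs have short core proteins built of leucine-rich repeats, bind collagen fibrils and set how they assemble. In peripheral nerve, fibroblasts of the epineurium and endoneurium are known sources of decorin (Dcn) and lumican (Lum).

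The mRNA counts summed to between 18727255 and 25350886 fragments per library. Levels are given as normalized FPKM, the deposited fragments per kilobase and library size (FPKM) divided by the TMM scaling factor of the library, which allows genes of different length to be compared. Each pair of values is given in the order rat a, rat b, and a difference is a log2 fold change ± its standard error from edgeR. A gene was called where the Benjamini-Hochberg adjusted p over all tested genes was under 0.05 and the fold change was at least 2. The tissue label fitted its markers: Sox10, a transcription factor of Schwann cells, stood at 118 and 85 in the control group, 98.4 and 114 in the D4 group, and 180.2 and 133 in the D7 group, and S100b, a calcium-binding protein of Schwann cells, at 1442 and 1212 in the control group, 755 and 755 in the D4 group, and 765 and 596 in the D7 group. Whole nerve holds several cell types, and fewer cells of a type cannot be told apart from less RNA per cell.

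Past both thresholds, 2 membrane-bound members differed from control: Ptprz1 was higher on both days, by 4.2-fold on D4 and 6.13-fold on D7, and Cspg4 was 2.32-fold lower on D7. The lecticans were at trace level except for Vcan, and the 4 SLRPs differed by less than 2-fold. In the control vs D4 group 1 of the 10 genes was called, against 21.9% of all tested genes. In the control vs D7 group 2 of the 10 were called, against 18.8%. The share called among the 10 genes was therefore no higher than that of all genes on D4 and near it on D7. By adjusted p alone, 5 of the 10 passed on D4, against a background of 44.2%, and 4 passed on D7, against 37.5%. The median log2 fold change of the 10 genes was -0.37 on D4 and -0.59 on D7, beside -0.04 and 0.01 over all tested genes. Both injured groups were compared with the same 2 control rats, so their values are not independent.

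**Figure D1:**
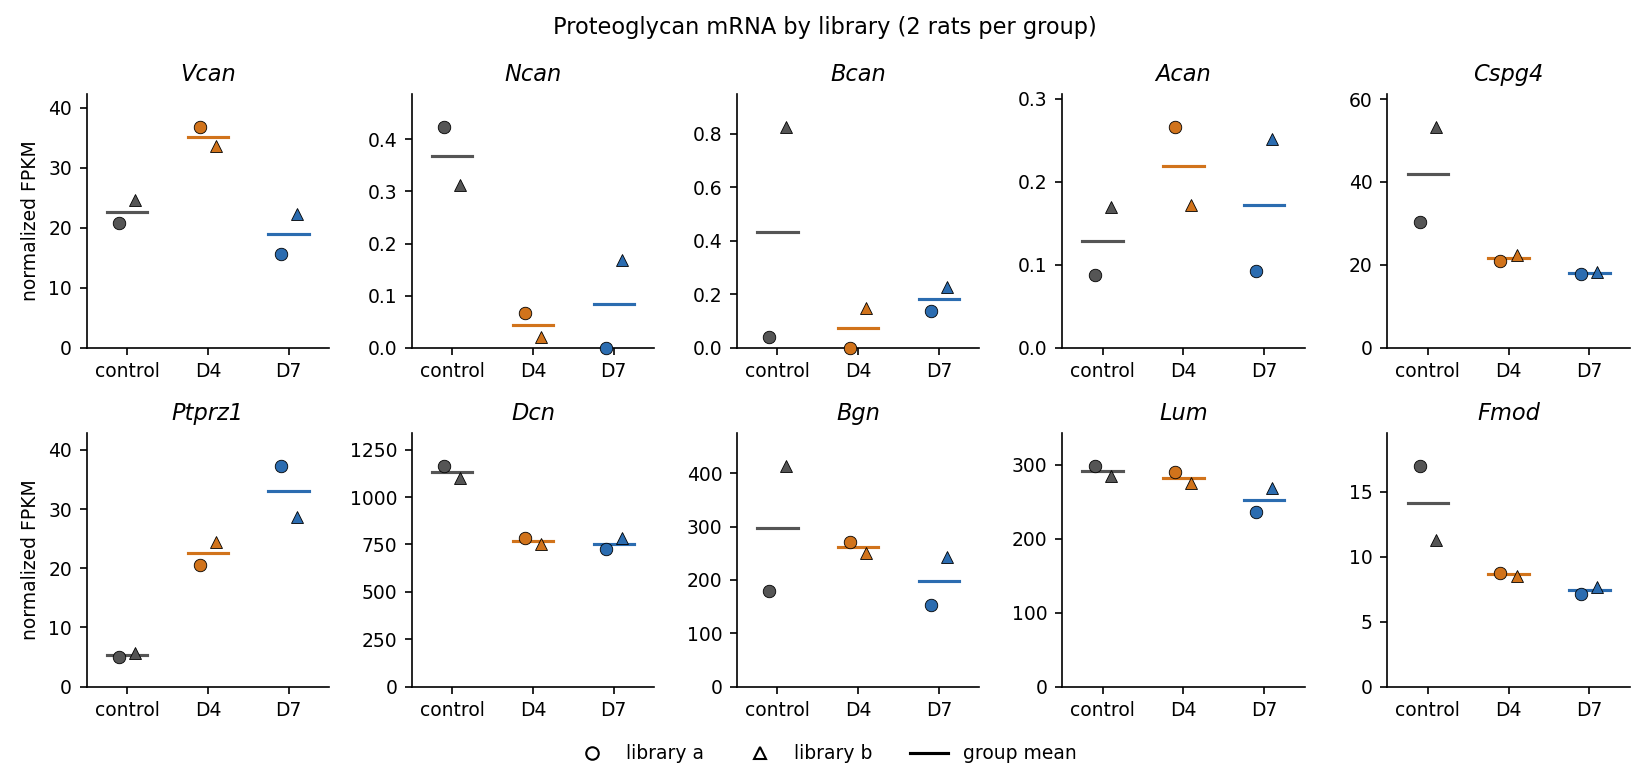
Normalized FPKM of the 10 proteoglycan genes on linear axes that start at 0, 1 panel per gene, with a circle for library a and a triangle for library b of the control, D4 and D7 groups and a line at the mean of the 2. In the Ptprz1 panel all 4 injured libraries stand above both control libraries, and in the Ncan, Cspg4, Dcn and Fmod panels they stand below both. The share of all tested genes that separate in this way is not given, so the separation alone does not set these genes apart. In the Bgn panel the control libraries, at 179 and 414, lie farther apart than the libraries of either injured group.

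Ptprz1 (ENSRNOG00000006030, chromosome 4, 49941304 to 50140762, Rnor_6.0) was the only member upregulated past both thresholds. Its level was 5.07 and 5.69 in the control group, 20.6 and 24.5 in the D4 group, and 37.3 and 28.6 in the D7 group. All 4 injured libraries lay above both control libraries, and both D7 libraries lay above both D4 libraries. The gene was 4.2-fold higher on D4 (log2 fold change 2.07 ± 0.17, edgeR adjusted p = 0.00037, 95% interval 1.66 to 2.48) and 6.13-fold higher on D7 (log2 fold change 2.62 ± 0.17, edgeR adjusted p = 0.000381, 95% interval 2.20 to 3.03). The further difference between D7 and D4 did not pass the test (log2 fold change 0.55 ± 0.16, edgeR adjusted p = 0.107). Among 9 Schwann cell markers, 2 were called higher and 5 lower on D4. The higher pair was Ngfr, the low-affinity neurotrophin receptor, at 7.04 and 6.41 in the control group, 573 and 608 in the D4 group, and 341 and 323 in the D7 group, and Erbb3, the neuregulin receptor, at 112 and 93.1 in the control group, 210.1 and 239 in the D4 group, and 296 and 262 in the D7 group. On D7 the same list held 2 higher and 2 lower calls, and its summed level was 7540.3 and 5178 in the control group, 2078 and 2149 in the D4 group, and 2937 and 2234 in the D7 group. In the control group most of that sum came from Mbp, Prx and S100b, at 3638, 1585 and 1442 in control rat a. In D4 rat a these genes stood at 214, 7.71 and 755, beside Ngfr at 573, so the make-up of the sum differed between the groups. Sox10 was not called on either day. The part of a change in Schwann cells in the Ptprz1 difference was not tested.

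Cspg4 (ENSRNOG00000017208, chromosome 8, 61532465 to 61567510, Rnor_6.0) was the only member downregulated past both thresholds. This membrane proteoglycan is known as a surface marker of pericytes and of immature Schwann cells. Its level was 30.4 and 53.4 in the control group, 20.8 and 22.4 in the D4 group, and 17.9 and 18.2 in the D7 group. The control rats differed widely, and all 4 injured libraries lay below the lower of them. The gene was 2.32-fold lower on D7 (log2 fold change -1.21 ± 0.25, edgeR adjusted p = 0.0129, 95% interval -1.83 to -0.60) and 1.93-fold lower on D4, where it passed the adjusted p but not the 2-fold threshold (log2 fold change -0.95 ± 0.25, edgeR adjusted p = 0.0242). Without control rat b the D7 log2 fold change was -0.75 (adjusted p = 0.0065) and the call was lost. The call was also lost without D7 rat a, at -1.17 (adjusted p = 0.0606), and without TMM scaling, at -0.92 (adjusted p = 0.0291). On D4, leaving out control rat a brought the difference to -1.3 and gave a call, and without TMM scaling it was -0.67 and did not pass (adjusted p = 0.0751). Some pericyte markers were lower beside Cspg4. Rgs5, a regulator of G-protein signalling in pericytes, stood at 84.5 and 142 in the control group, 48.7 and 40.8 in the D4 group, and 47.5 and 55.4 in the D7 group, also highest in control rat b, and was called lower on both days (-1.34 and -1.14). Of the 6 pericyte markers, 1 was called lower on D4 and 3 on D7 (Rgs5, Abcc9 and Notch3), and their summed level was 268 and 423 in the control group, 227 and 216 in the D4 group, and 309 and 278 in the D7 group, so that the D7 sums lay between those of the control rats. Mcam, another pericyte marker, stood at 90.1 and 132 in the control group, 105 and 112 in the D4 group, and 205 and 152 in the D7 group and was not called (-0.03 on D4 and 0.68 on D7). Of 3 endothelial markers found, 2 were called lower on D4 and 3 on D7, and their summed level was 114 and 105 in the control group, 59.9 and 51.1 in the D4 group, and 40.5 and 47.4 in the D7 group. Of 5 perineurial markers tested, 1 was called higher and 2 lower on D4 and 1 higher and 3 lower on D7, and the sum over that list was 537 and 414 in the control group, 218 and 215 in the D4 group, and 264 and 221 in the D7 group. The part of pericyte, endothelial and perineurial content in the Cspg4 difference was not tested.

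Vcan (ENSRNOG00000029212, chromosome 2, 18490102 to 18565842, Rnor_6.0) was the only lectican expressed at more than trace level. Its level was 20.8 and 24.5 in the control group, 36.8 and 33.5 in the D4 group, and 15.7 and 22.3 in the D7 group. Both D4 libraries lay above both control libraries, and both D7 libraries lay below both D4 libraries, with D7 rat a the lowest of the 6. Vcan was 1.55-fold higher on D4, which passed the adjusted p but not the 2-fold threshold (log2 fold change 0.63 ± 0.19, edgeR adjusted p = 0.0351, 95% interval 0.18 to 1.09). The difference from control on D7 did not pass the test (log2 fold change -0.25 ± 0.19, edgeR adjusted p = 0.319, 95% interval -0.71 to 0.20). Between D7 and D4 the log2 fold change was -0.89 ± 0.19 with an edgeR adjusted p of 0.0563, which did not pass, and without D7 rat b it was -1.17 (adjusted p = 0.0281) and passed both thresholds. Without TMM scaling the D4 difference was 0.92 (adjusted p = 0.0102) and the D7 difference took the opposite sign, at 0.04. With 1 library left out at a time the D4 difference ran from 0.52 to 0.76.

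The other lecticans were near the detection limit of these libraries. Ncan (ENSRNOG00000048036, chromosome 16, 21050243 to 21076707), a lectican of the brain, had counts of 46 and 29 in the control group, 9 and 3 in the D4 group, and 0 and 19 in the D7 group, so that both D4 libraries and both D7 libraries lay below both control libraries. Its log2 fold change was -3.10 on D4 with a 95% interval of -6.05 to -0.14 (edgeR adjusted p = 0.0829) and -2.14 on D7 (edgeR adjusted p = 0.188). The D4 difference was called in a fit of the control and D4 groups alone (-3.05, adjusted p = 0.0124) and without either D7 rat (-3.06 and -3.09), and the D7 difference was called without D7 rat b, whose partner held 0 counts (adjusted p = 0.0162). Bcan (ENSRNOG00000018798, chromosome 2, 187359677 to 187372657), also a brain lectican, had counts of 3 and 51 in the control group, 0 and 15 in the D4 group, and 11 and 17 in the D7 group and the groups overlapped, with control rat a among the lowest libraries and control rat b the highest (log2 fold change -2.46, edgeR adjusted p = 0.228 on D4). Without control rat b its values turned positive, to 0.86 on D4 and 2.09 on D7. Acan (ENSRNOG00000028992, chromosome 1, 140762758 to 140824441), the main proteoglycan of cartilage, had counts of 12 and 20 in the control group, 46 and 33 in the D4 group, and 14 and 36 in the D7 group, and its D7 libraries overlapped both other groups (log2 fold change 0.77, edgeR adjusted p = 0.34 on D4). At counts this low, a count of 0 in a library allows up to 3, and the wide intervals leave room for changes of several fold in these genes.

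The make-up of the chondroitin sulfate members can be read from each library on its own. The summed level of the 6 chondroitin sulfate members was 56.7 and 84.9 in the control group, 78.6 and 80.8 in the D4 group, and 71.1 and 69.8 in the D7 group, so the injured libraries lay between the 2 control libraries. This position depends on the scaling. Without TMM the sums were 49.0 and 75.1 in the control group and 83.8 and 86.3 in the D4 group. In the D7 group they were 75.7 and 75.4, so all injured libraries then lay above both control libraries. Ptprz1 made up 8.93% and 6.71% of this sum in the control group, 26.2% and 30.3% in the D4 group, and 52.5% and 41.0% in the D7 group. Cspg4 made up 53.5% and 62.8% in the control group, 26.5% and 27.8% in the D4 group, and 25.1% and 26.1% in the D7 group. The share of Vcan was 36.6% and 28.9% in the control group, 46.8% and 41.5% in the D4 group, and 22.1% and 32.0% in the D7 group. Cspg4 was thus the leading member in both control libraries, Vcan in both D4 libraries and Ptprz1 in both D7 libraries. These are shares of RNA and not of protein, and they are described without a test.

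**Figure D2:**
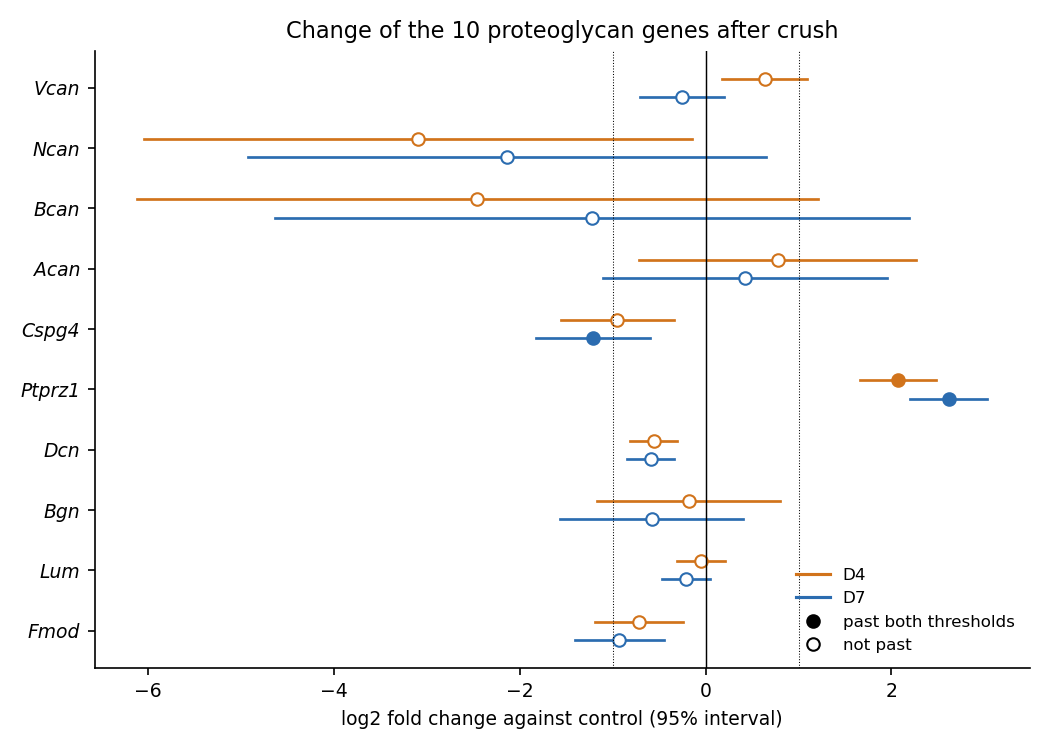
Fitted log2 fold change against control (horizontal axis) of each of the 10 genes on D4 (orange) and D7 (blue), with 95% intervals as bars, dotted lines at a 2-fold change and filled points past both thresholds. Ptprz1 is filled on both days with intervals wholly above the dotted line, Cspg4 is filled on D7 alone, and the intervals of Ncan and Bcan are the widest.

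The RefSeq promoter table held 7 of the 10 genes, all but Ptprz1, Dcn and Bgn, and the 250 bases upstream of the start are shown for 4 of them. These are Vcan and Cspg4, whose differences ran in opposite directions on D4 (0.63 and -0.95, both under 2-fold), and Fmod and Lum, SLRPs with and without a difference on D4. On D7 the values of Vcan and Cspg4 were both negative (-0.25 and -1.21). Coordinates are those of GRCr8 and not of the build of the counts. Capitals mark matches on either strand to any of 4 motifs, none of which contains another: the core promoter motif TATAAA, the box named for its letters CCAAT, the GC box with the letters GGGCGG, and the AP-1 type motif with the letters TGANTCA.
Vcan (chr2:22595956-22596205, minus strand): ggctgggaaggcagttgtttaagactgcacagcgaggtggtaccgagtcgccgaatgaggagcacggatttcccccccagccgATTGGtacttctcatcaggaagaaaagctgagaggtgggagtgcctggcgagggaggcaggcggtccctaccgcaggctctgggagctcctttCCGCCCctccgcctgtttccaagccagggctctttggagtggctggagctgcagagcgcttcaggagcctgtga
Cspg4 (chr8:66160692-66160941, plus strand): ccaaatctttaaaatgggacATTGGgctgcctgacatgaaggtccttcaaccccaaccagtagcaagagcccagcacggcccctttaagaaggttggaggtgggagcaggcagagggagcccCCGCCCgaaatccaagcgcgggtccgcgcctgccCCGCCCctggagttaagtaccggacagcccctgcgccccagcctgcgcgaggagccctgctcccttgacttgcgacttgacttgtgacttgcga
Fmod (chr13:48045317-48045566, plus strand): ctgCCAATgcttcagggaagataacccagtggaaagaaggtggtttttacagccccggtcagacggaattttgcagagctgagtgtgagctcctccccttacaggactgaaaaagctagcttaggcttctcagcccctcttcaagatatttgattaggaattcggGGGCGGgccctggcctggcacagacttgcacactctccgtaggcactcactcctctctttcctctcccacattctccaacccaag
Lum (chr7:34245456-34245705, plus strand): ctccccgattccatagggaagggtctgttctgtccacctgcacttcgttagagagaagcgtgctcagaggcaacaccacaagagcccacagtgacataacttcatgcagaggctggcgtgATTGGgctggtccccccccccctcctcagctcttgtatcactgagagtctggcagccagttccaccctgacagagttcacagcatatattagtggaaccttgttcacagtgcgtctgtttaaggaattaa
The table held a second Vcan start, whose upstream window (chr2:22595858-22596107) had 1 GC box match and no CCAAT box match. The Vcan sequence shown held 1 CCAAT box and 1 GC box match, that of Cspg4 held 1 and 2, that of Fmod held 1 and 1, and that of Lum held 1 CCAAT box match alone. Over 33465 promoters of this length in the table, 34% held the CCAAT box, 30.5% the GC box, 12.9% the core promoter motif and 6.34% the AP-1 type motif. A match describes the letters and not a bound site.

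Dcn, Bgn and Lum were expressed far above the chondroitin sulfate members, whereas Fmod lay below Vcan and Cspg4 in every library. None of the 4 SLRPs was called in either injured group. The summed level of the 4 was 1661 and 1811 in the control group, 1356 and 1288 in the D4 group, and 1121 and 1303 in the D7 group. Without TMM scaling the sums were 1434 and 1603 in the control group and 1446 and 1376 in the D4 group, which overlapped. In the D7 group they were 1193 and 1407. On either day DESeq2 also called 0 of 4, while 2 of the 4 had an unadjusted edgeR p under 0.05 on each day. Dcn and Fmod were those 2, and both passed the adjusted p on both days with a change under 2-fold. An unadjusted edgeR p under 0.05 was held by 8088 of all 15195 tested genes on D4 and by 7361 on D7.

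Dcn (ENSRNOG00000004554, chromosome 7, 38742051 to 38782323, Rnor_6.0), whose product decorin binds collagen and TGF-beta, was the most abundant of the 10 genes in every library. Its level was 1166 and 1100.4 in the control group, 786 and 754 in the D4 group, and 724 and 783 in the D7 group. All 4 injured libraries lay below both control libraries, and the D4 and D7 libraries overlapped. It was 1.47-fold lower on D4 (log2 fold change -0.56 ± 0.1, edgeR adjusted p = 0.00719, 95% interval -0.81 to -0.30) and 1.5-fold lower on D7 (log2 fold change -0.59 ± 0.1, edgeR adjusted p = 0.00747, 95% interval -0.84 to -0.34). Without TMM scaling the differences were -0.27 (adjusted p = 0.0718) and -0.29 (adjusted p = 0.0569), so they no longer passed. With 1 library left out at a time they ran from -0.60 to -0.52 on D4 and from -0.65 to -0.50 on D7. Fmod (ENSRNOG00000003183, chromosome 13, 50873605 to 50885563, Rnor_6.0), fibromodulin, is another collagen-binding SLRP. Its level was 17 and 11.3 in the control group, 8.79 and 8.49 in the D4 group, and 7.17 and 7.71 in the D7 group, again with all 4 injured libraries below both control libraries. It was 1.64-fold lower on D4 (log2 fold change -0.71 ± 0.19, edgeR adjusted p = 0.0276) and 1.9-fold lower on D7 (log2 fold change -0.93 ± 0.2, edgeR adjusted p = 0.0138). Without TMM scaling Fmod was at -0.42 on D4 (adjusted p = 0.108) and at -0.63 on D7 (adjusted p = 0.0349). Leaving out control rat b, the lower of the controls, took the D7 difference of Fmod to -1.2, past 2-fold. Over the fits with 1 library left out, the Fmod difference ran from -0.98 to -0.38 on D4 and from -1.20 to -0.60 on D7.

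Lum (ENSRNOG00000004610, chromosome 7, 38819771 to 38826862, Rnor_6.0), which lies next to Dcn in the genome, showed no difference past the test. Its level was 299 and 286 in the control group, 290.4 and 275 in the D4 group, and 237 and 269 in the D7 group, and the groups overlapped on D4. The interval of the log2 fold change was narrow, -0.30 to 0.21 on D4 (log2 fold change -0.05, edgeR adjusted p = 0.733) and -0.47 to 0.05 on D7 (log2 fold change -0.21, edgeR adjusted p = 0.165). The sign depends on the scaling, since without TMM the values were 0.24 and 0.09. Bgn (ENSRNOG00000055962, chromosome X, 157319046 to 157331204, Rnor_6.0), biglycan, the closest relative of Dcn, varied more between the control rats than between the groups, at 179 and 414 in the control group, 271 and 251 in the D4 group, and 153 and 243 in the D7 group. Control rat a was the second lowest and control rat b the highest of the 6 libraries. The log2 fold change was -0.18 (edgeR adjusted p = 0.736) on D4 with a 95% interval of -1.17 to 0.80, and -0.58 (edgeR adjusted p = 0.297) on D7. Without control rat b both values turned positive, to 0.54 and 0.15, and without control rat a the D7 value was -1.07 and was called (adjusted p = 0.0357). Fibroblast collagens moved with the lower SLRPs: Col1a1 stood at 4273 and 4539 in the control group, 2912 and 2660.5 in the D4 group, and 2001 and 2252 in the D7 group and was called lower on D7 (-1.05), while Pdgfra, a receptor on fibroblasts, stood at 50.2 and 51.7 in the control group, 77.7 and 85.1 in the D4 group, and 66 and 76.6 in the D7 group. Over the 7 fibroblast markers found, the summed level was 10017 and 10978 in the control group, 6750.0 and 6038 in the D4 group, and 5232 and 5771 in the D7 group. Nearly all of that sum was collagen, with Col1a1 at 4273 and Col3a1 at 5665 in control rat a. The median log2 fold change of the 6 markers tested was -0.06 on D4 and -0.38 on D7. None of the 6 tested was called on D4 (3 had an unadjusted edgeR p under 0.05, beside 8088 of all 15195 tested genes, and DESeq2 called 0), and 1 was called lower on D7. The part of fibroblast content in these differences was not tested.

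Between the 2 injured groups none of the 10 genes was called by edgeR or by DESeq2, and 2 had an unadjusted edgeR p under 0.05, Vcan lower and Ptprz1 higher on D7. Such a p was held by 3754 of all 15195 tested genes. Over all tested genes 2.18% were called in this comparison, and without either D4 library edgeR called 0, with 2054 and 2296 genes at an unadjusted p under 0.05.

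Members of the SLRP family lie in gene clusters, and neighbours had unlike values. On chromosome 7, Dcn, Lum, Kera and Epyc lie in this order within 192.934 kb. Epyc (chromosome 7, 38897278 to 38934985), epiphycan, a cartilage SLRP, had a level of 14.8 and 7.21 in the control group, 0.311 and 0.216 in the D4 group, and 1.24 and 1.07 in the D7 group. All 4 injured libraries lay far below both control libraries, and the gene was called lower on D4 (log2 fold change -5.39 ± 0.44, edgeR adjusted p = 0.000394) and on D7 (log2 fold change -3.25 ± 0.38, edgeR adjusted p = 0.0018). Kera, keratocan, between Lum and Epyc, was low at 0.627 and 0.397 in the control group, 0.978 and 0.58 in the D4 group, and 0.405 and 0.476 in the D7 group, with overlapping groups on D4 (log2 fold change 0.59, edgeR adjusted p = 0.317). Some chondrocyte markers were lower beside Epyc. Col2a1, the collagen of cartilage, stood at 164 and 81.6 in the control group, 0.877 and 1.11 in the D4 group, and 29.7 and 15.9 in the D7 group. Col2a1, Col9a1 and Col11a2, the 3 markers tested, were called lower on both days. Between D7 and D4 they parted, with Col2a1 called higher (4.52) and Col9a1 called lower (-1.04), while Epyc was higher without a call (2.14). Over the 6 markers of that list the summed level was 223 and 136 in the control group and 16.5 and 21.1 in the D4 group. In the D7 group it was 39.5 and 27.2. Matn1 was at 0 in all control and D4 libraries. Matn3 and Col10a1 had at most 14 and 6 counts in any library and were not tested. Acan, the cartilage proteoglycan among the 10 genes, had positive values that were not called (log2 fold change 0.77 on D4 and 0.43 on D7). The part of cartilage-like cells in the Epyc difference was not tested.

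On chromosome 13, Optc, Prelp and Fmod lie within 149.964 kb. Prelp, a basement membrane SLRP, had a level of 35.9 and 37.3 in the control group, 25 and 19 in the D4 group, and 13.7 and 17.8 in the D7 group and was called lower on D7 (log2 fold change -1.22 ± 0.18, edgeR adjusted p = 0.00384) but was under 2-fold on D4 (log2 fold change -0.73 ± 0.18, edgeR adjusted p = 0.018). Optc, opticin, stood at 1.05 and 1.03 in the control group, 0.642 and 0.49 in the D4 group, and 0.223 and 0.352 in the D7 group, was called lower on D7 (log2 fold change -1.85 ± 0.4, edgeR adjusted p = 0.0146) and did not pass on D4 (log2 fold change -0.88, edgeR adjusted p = 0.1). For Optc, Prelp and Fmod alike, all 4 injured libraries lay below both control libraries. Prelp, Optc and Kera were named after their values were seen, as the remaining members of these clusters.

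**Figure D3:**
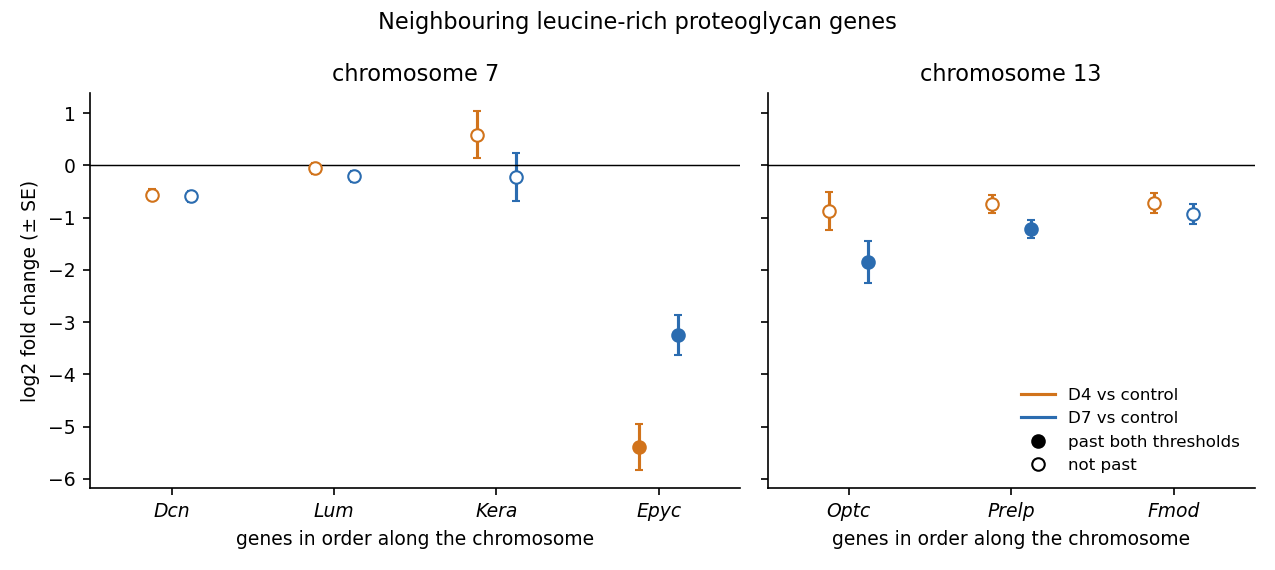
Fitted log2 fold change against control on D4 and D7 for the SLRP genes of the 2 clusters, in genome order, with bars of 1 standard error and filled points past both thresholds. In the chromosome 7 cluster Lum lies near 0 and Epyc far below it, and in the chromosome 13 cluster all 3 genes lie below 0 on both days.

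Of the 13 other SLRP genes listed, 11 were found and 6 tested, of which 1 was called higher and 1 lower on D4, and 1 higher and 3 lower on D7. Podnl1, podocan-like 1, had counts of 0 and 0 in the control group, 70 and 170 in the D4 group, and 22 and 34 in the D7 group, which is at least 27.3-fold higher on D4 and at least 8.1-fold higher on D7 than a control level of 3 counts per library. Omd, Chad and both gene entries each of Ogn and Aspn were listed at 0 counts in all 6 libraries. Col1a2, a collagen gene used throughout connective tissue, was listed at 0 as well, so these zeros are not read as absence of the transcripts.

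Genes around the 10 members were examined in 6 lists, the other SLRPs, chain synthesis, chain breakdown, ADAMTS proteases, the hyaluronan and tenascin matrix, and receptors and ligands, with 77 genes found of 80 and 70 tested. Of these, 17 were called higher and 7 lower on D4, and 15 higher and 9 lower on D7, against backgrounds of 11.2% higher and 10.7% lower on D4 and of 9.83% higher and 9.02% lower on D7. The same backgrounds apply to the counts of each of the 6 lists. Scaling mattered for the balance: 70.8% of the calls were higher on D4 and 62.5% on D7 with TMM, and 80.8% of 26 calls and 75.0% of 24 calls without it. Over all tested genes the higher share went from 51.2% to 69.3% of 3507 calls on D4, and from 52.1% to 70.4% of 3145 calls on D7.

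**Figure D4:**
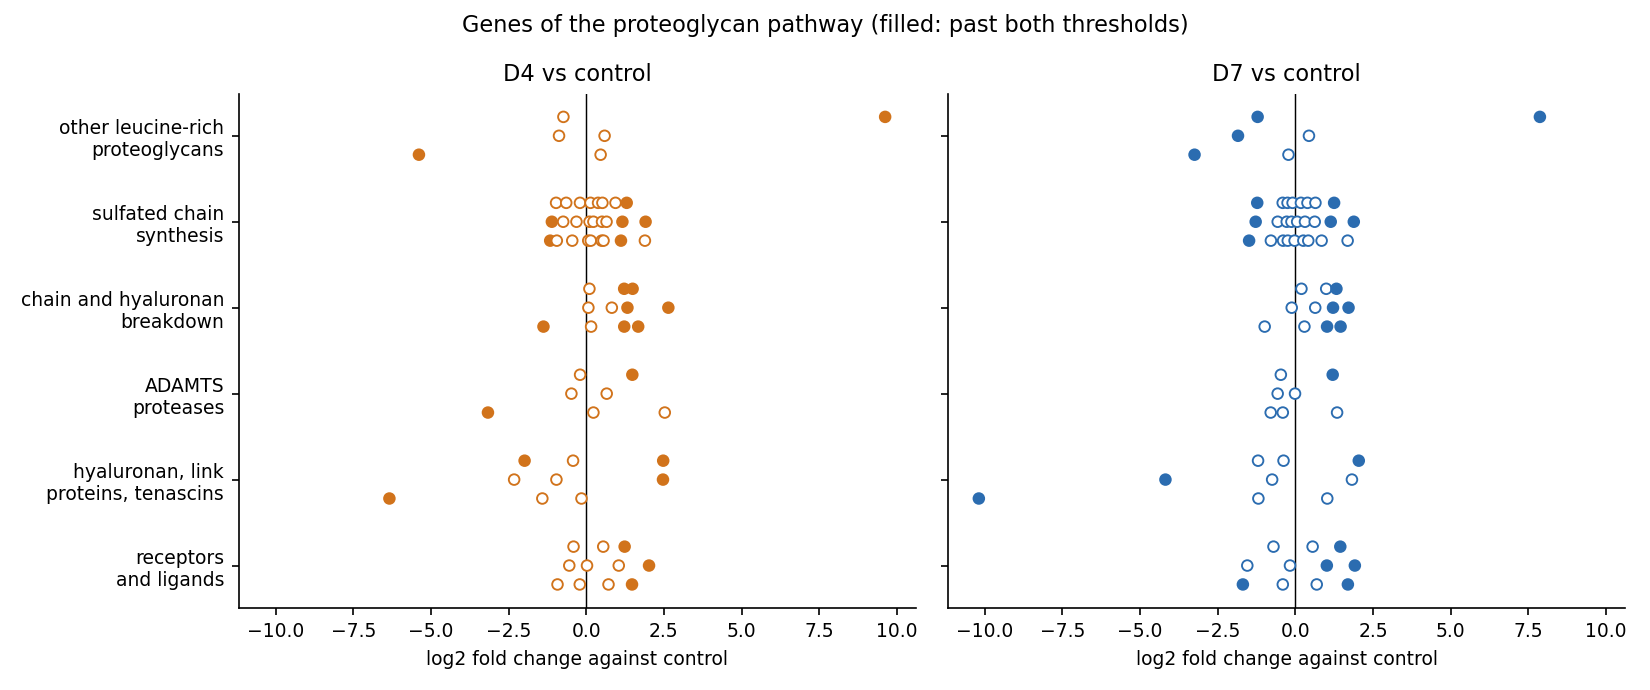
Fitted log2 fold change against control on D4 (left) and D7 (right), 1 point for each of the 70 tested genes in its list, filled where past both thresholds. Most filled points of the breakdown list lie to the right of 0, and the farthest points, Podnl1 to the right and Hapln2 to the left on D7, rest on a group with 0 counts, so that their position depends on the model and is no estimate of size.

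The 26 tested genes of chondroitin and dermatan sulfate synthesis held 4 higher and 2 lower calls on D4 and 3 of each on D7. Over all tested genes 11.2% were called higher and 10.7% lower on D4, and 9.83% and 9.02% on D7. The count of this list was therefore near the background. Its median log2 fold change was 0.19 on D4 and 0.01 on D7. Of the enzymes that supply and polymerize the chain, Ugdh and Chsy1 were called higher on both days, and Chpf, Chpf2, Csgalnact1 and Csgalnact2, which were named after their values were seen, lay between -0.20 and 0.51 on D4 and were not called. Ugdh, which makes the UDP-glucuronic acid used as a building block, stood at 22.5 and 27.7 in the control group, 88.6 and 100.1 in the D4 group, and 89.5 and 94.9 in the D7 group (log2 fold change 1.91 ± 0.13, edgeR adjusted p = 0.000242 on D4, and 1.88 on D7). Chsy1, a chondroitin synthase that extends the chain, stood at 14 and 14.6 in the control group, 36.2 and 34.3 in the D4 group, and 31.6 and 31.2 in the D7 group (log2 fold change 1.3 ± 0.09, edgeR adjusted p = 0.000215 on D4, and 1.14 on D7). In both genes all injured libraries lay above both control libraries. The enzymes that make PAPS, the donor for every sulfation step, were called lower on D4. Papss1 stood at 103 and 93.4 in the control group, 45.3 and 45.8 in the D4 group, and 60.7 and 52.7 in the D7 group (log2 fold change -1.11 ± 0.11, edgeR adjusted p = 0.000683 on D4), and on D7 its difference was under 2-fold (log2 fold change -0.79, edgeR adjusted p = 0.00305). Papss2 stood at 11.6 and 9.77 in the control group, 5.93 and 3.62 in the D4 group, and 3.19 and 4.4 in the D7 group and was called lower on both days (log2 fold change -1.16 ± 0.27, edgeR adjusted p = 0.0161 on D4, and -1.49 on D7). The D4 calls of both were lost without TMM scaling, at -0.82 and -0.87, and that of Papss2 also without D4 rat b or control rat a. Among the rest, named after their values were seen, Slc26a2, a sulfate transporter, was called higher on both days (1.12 and 1.24). The 4-O-sulfotransferase Chst11 was called higher on D4 (1.17), and Xylt1, which starts the chain, and Chst7, a 6-O-sulfotransferase, were called lower on D7 (-1.23 and -1.28).

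Of 11 tested enzymes that break down the chains or hyaluronan, 6 were called higher and 1 lower on D4, and 5 higher on D7, where edgeR called 0 lower, DESeq2 called 1 lower and 7 of the 11 had an unadjusted edgeR p under 0.05 in either direction. Such a p was held on D7 by 7361 of all 15195 tested genes. The median log2 fold change of the 11 enzymes was 1.22 on D4 and 0.99 on D7. Gusb, the lysosomal beta-glucuronidase, stood at 6.34 and 7.26 in the control group, 24.4 and 18.9 in the D4 group, and 23.2 and 21.2 in the D7 group (log2 fold change 1.67 ± 0.15, edgeR adjusted p = 0.000548 on D4, and 1.71 on D7). Arsb, which removes the 4-sulfate, stood at 18.2 and 18.1 in the control group, 62.2 and 39.8 in the D4 group, and 48.4 and 42.1 in the D7 group (log2 fold change 1.49 ± 0.21, edgeR adjusted p = 0.00263 on D4, and 1.32 on D7). The lower gene was Hyal1, the lysosomal hyaluronidase, at 18.4 and 24.5 in the control group, 6.9 and 9.58 in the D4 group, and 11.7 and 9.86 in the D7 group (log2 fold change -1.38 ± 0.22, edgeR adjusted p = 0.00406 on D4), which was just under 2-fold on D7 (log2 fold change -0.99, edgeR adjusted p = 0.0159). Macrophage markers moved with the enzymes: 6 of 6 were called higher on D4 and 5 of 6 on D7, and their summed level was 79.6 and 70.5 in the control group, 283 and 259 in the D4 group, and 189.7 and 224 in the D7 group. The part of macrophage content in the enzyme levels was not tested.

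Among the 7 ADAMTS proteases that cut lectican core proteins, Adamts4, aggrecanase-1, rose on both days. It stood at 17.1 and 15.8 in the control group, 46.4 and 45.7 in the D4 group, and 41.2 and 34.4 in the D7 group (log2 fold change 1.48 ± 0.12, edgeR adjusted p = 0.000338 on D4, and 1.20 on D7). Adamts20, a versican-cleaving protease, fell on D4 and stood between the D4 and control levels on D7. Its level was 43.5 and 41.3 in the control group, 4.34 and 5.12 in the D4 group, and 28.6 and 20.2 in the D7 group, so that both D4 libraries lay far below the rest and the D7 libraries between the other groups. The log2 fold change was -3.16 ± 0.19 on D4 (edgeR adjusted p = 0.000184), -0.80 on D7 (edgeR adjusted p = 0.0167, under 2-fold) and 2.37 ± 0.19 between D7 and D4 (edgeR adjusted p = 0.0117), the last lost without either D4 library.

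In the matrix that lecticans bind, 9 hyaluronan synthase, link protein and tenascin genes were tested, with 2 higher and 2 lower on D4, and 1 higher and 2 lower on D7. Tnc, tenascin-C, stood at 16.8 and 24.9 in the control group, 120.0 and 112 in the D4 group, and 82.9 and 88.4 in the D7 group and rose on both days (log2 fold change 2.48 ± 0.2, edgeR adjusted p = 0.000358 on D4, and 2.04 on D7). Among the 3 hyaluronan synthases, Has2 stood at 5.22 and 8.95 in the control group, 5.98 and 6.75 in the D4 group, and 4.51 and 6.34 in the D7 group and did not pass on D4 (log2 fold change -0.15, edgeR adjusted p = 0.688) or D7 (log2 fold change -0.38, edgeR adjusted p = 0.326), and was named after its values were seen. Has1 had counts of 5 and 12 in the control group, 91 and 45 in the D4 group, and 37 and 34 in the D7 group and was called higher on D4 (log2 fold change 2.47 ± 0.62, edgeR adjusted p = 0.0208), a call lost without D4 rat a (1.78) or control rat a (1.89), and did not pass on D7 (log2 fold change 1.82, edgeR adjusted p = 0.0664). Has3 stood at 1.26 and 1.41 in the control group, 0.502 and 0.174 in the D4 group, and 0.564 and 0.6 in the D7 group and was called lower on D4 (log2 fold change -1.98 ± 0.46, edgeR adjusted p = 0.0157) but did not pass on D7 (log2 fold change -1.19, edgeR adjusted p = 0.0807). Hapln2, a link protein of the node of Ranvier, had counts of 162 and 87 in the control group, 4 and 0 in the D4 group, and 0 and 0 in the D7 group and was called lower on both days (log2 fold change -6.34 ± 0.86, edgeR adjusted p = 0.00384 on D4), and at least 47-fold lower on D7 with 3 counts per library as the floor. Oligodendrocyte markers were at trace level, with a sum over 5 genes of 3.71 and 1.24 in the control group and between 0.177 and 0.437 in the injured libraries, and Mobp among them was called lower on both days. Mobp held most of that sum, at 3.12 and 1.13 in the control group, and on D7 DESeq2 called 0 of the list lower. Olig1, the other marker tested, had positive values that were not called (log2 fold change 1.05 on D4 and 0.27 on D7). The part of oligodendrocyte content in the Hapln2 and Ncan values was not tested.

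Of 11 receptors and ligands of these proteoglycans, 3 were called higher and none lower on D4 (DESeq2 called 0 lower, and 6 of the 11 had an unadjusted edgeR p under 0.05), and 4 higher and 1 lower on D7. Such a p was held on D4 by 8088 of all 15195 tested genes. Cd44, the hyaluronan receptor, stood at 18.5 and 23.5 in the control group, 85.7 and 84.8 in the D4 group, and 71 and 64.2 in the D7 group (log2 fold change 2.02 ± 0.14, edgeR adjusted p = 0.000239 on D4, and 1.69 on D7). Mdk, midkine, and Ptn, pleiotrophin, are growth factors that bind the extracellular part of Ptprz1. Mdk stood at 32.6 and 25.9 in the control group, 72.8 and 89.8 in the D4 group, and 81.8 and 77.5 in the D7 group and was called higher on both days (log2 fold change 1.47 ± 0.16, edgeR adjusted p = 0.000912 on D4, and 1.44 on D7). Ptn, named after its values were seen, stood at 52.5 and 42.8 in the control group, 77.2 and 79.7 in the D4 group, and 96.7 and 95.6 in the D7 group and was called higher on D7 (log2 fold change 1.01 ± 0.12, edgeR adjusted p = 0.00171) but was under 2-fold on D4 (log2 fold change 0.72, edgeR adjusted p = 0.0044). Nrcam, an axonal adhesion molecule, stood at 19.5 and 15.3 in the control group, 39.3 and 42.7 in the D4 group, and 15.2 and 15.6 in the D7 group. It rose on D4 (log2 fold change 1.24 ± 0.13, edgeR adjusted p = 0.000962), did not differ from control past the test on D7 (log2 fold change -0.18, edgeR adjusted p = 0.331), and was lower on D7 than on D4 (log2 fold change -1.41 ± 0.13, edgeR adjusted p = 0.0117), a call lost without either D4 library or D7 rat a.

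A total of 13 annotated lncRNA transcripts overlapped the span of 6 of the 10 genes, 11 of them wholly inside it, and 4 had enough counts to be tested. NONRATT020281.2 (chromosome 4, 50090116 to 50090984, 869 nt), inside Ptprz1, was the only one called. Its level in TMM-normalized CPM (counts scaled to the library total) was 25.2 and 16 in the control group, 87.6 and 104 in the D4 group, and 139 and 121 in the D7 group, so that it lay above both control libraries in all 4 injured ones, as its host gene did. It was called higher on D4 (log2 fold change 2.21 ± 0.28, edgeR adjusted p = 0.0106) and on D7 (log2 fold change 2.65 ± 0.29, edgeR adjusted p = 0.0112), where 10.1% and 5.79% of all tested lncRNAs were called. The D4 call was lost without either D4 library (adjusted p = 0.0559 and 0.0712), and the D7 call without either D7 library (adjusted p = 0.0601 and 0.05001). Named after their values were seen, NONRATT015952.2 (chromosome 2, 18491398 to 18492473), inside Vcan, stood at 42.1 and 51.6 in the control group, 84.8 and 72.2 in the D4 group, and 26.3 and 54.3 in the D7 group in CPM and did not pass the test (log2 fold change 0.74, edgeR adjusted p = 0.252 on D4). NONRATT027718.2 (chromosome 8, 61547619 to 61548441), inside Cspg4, had counts of 30 and 43 in the control group, 12 and 4 in the D4 group, and 13 and 16 in the D7 group and did not pass by edgeR on D4 (log2 fold change -2.32 ± 0.6, edgeR adjusted p = 0.0687), while DESeq2 called it. NONRATT027719.2, the other transcript tested in Cspg4, had counts of 9 and 25 in the control group, 3 and 17 in the D4 group, and 5 and 7 in the D7 group (log2 fold change -0.97, edgeR adjusted p = 0.51 on D4). Whether counting used the strand is not stated, so fragments of such a transcript and of its host gene cannot be told apart with certainty.

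**Figure D5:**
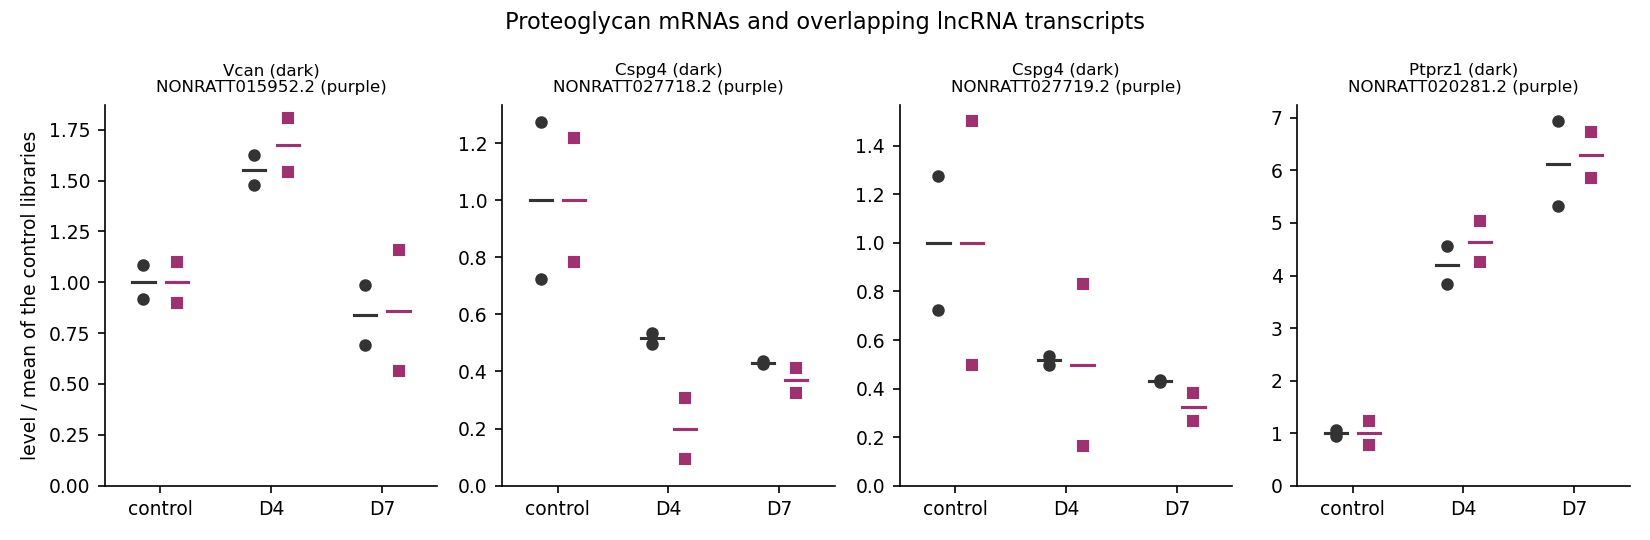
Levels of the 4 tested lncRNAs (purple squares, TMM-normalized CPM) and of the genes that contain them (dark circles, normalized FPKM), each divided by its own mean over the 2 control libraries, with 1 point per library and a line at the group mean. The transcript inside Ptprz1 and Ptprz1 itself both lie higher in the 4 injured libraries than in either control library.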

How the data were processed

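Whole sciatic nerve RNA of 6 rats in 3 groups was sequenced, 1 library per rat. The counts were deposited as whole fragments per gene or lncRNA transcript, made by the authors with HISAT2 2.0.4 and StringTie 1.3.0 on Rnor_6.0 (versions from the submitters' processing notes). The FPKM values were deposited by the authors beside the counts and scale with the summed mRNA counts alone, so they were divided by the TMM factor here. Strand use in counting is not stated.

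Counts were tested with edgeR 4.0.16 in R 4.3.3: filterByExpr, TMM factors and a quasi-likelihood fit of all 6 libraries, separately for 15195 mRNAs and 14077 lncRNAs (lncRNA totals 2694777 to 3043817), with Benjamini-Hochberg adjustment. Standard errors were the absolute log2 fold change over the square root of F, and 95% intervals used the t distribution of the fit. The fit was tested on simulated data with 200 changed genes. Where a group held 3 counts or fewer per library, the fold was taken against 3 counts. Each group has 2 rats, and p-values measure only the spread between these rats. The letters a and b name rats and do not pair them.

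Alternatives were DESeq2 1.42.0, RLE factors, no TMM, no low-count filter, other thresholds, a fit of 2 groups, a block on the letters and leaving out each library. Members and lists were chosen with earlier results of these data known. One marker gene is not reported here and was left out of its list. In each pathway list the 2 largest rises and falls on D4 were named, of genes called, at a mean FPKM of at least 1 and with groups not overlapping, and those called between D7 and D4. Promoters were read from RefSeq (GRCr8). Scripts used Python 3.11.15.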

Additional observations from a re-analysis of the deposited data

Results flagged for a closer look

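Among the 70 pathway genes tested, 2 were called between the injured groups in the test of that difference. Over all 15195 tested genes 331 were called (2.18%), so the pathway count is near the background. Adamts20 was higher on D7 than on D4 by a log2 fold change of 2.37 ± 0.19 (edgeR adjusted p = 0.0117). Nrcam was lower on D7 than on D4, at -1.41 ± 0.13 (edgeR adjusted p = 0.0117). In each, both D7 libraries lay on the same side of both D4 libraries. Both calls were lost without either D4 library, with adjusted p of 0.139 and 0.112, in fits where the lone D4 library is assumed to vary like the other groups. The Nrcam call was also lost without D7 rat a (adjusted p = 0.0585). Groups of 2 libraries are too small for a test of single outlying samples.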

How the results depend on the processing

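With 2 rats per group and few counts, small differences in Ncan, Bcan and Acan could not be detected, and Bcan also differed widely between the control rats (3 and 51 counts). The next counts leave out the settings that dropped the fold threshold or tested the 2-fold change. The called differences include pathway genes named as the largest called changes of their lists. That choice favoured their staying past the threshold. Of 224 values of 37 called differences under other settings, 221 kept their direction and stayed past the threshold and 3 no longer passed it. Of 171 values of 27 differences not called, 165 kept direction and side, 1 passed and 5 reversed. Without a library, 207 of 222 called values stayed past the threshold, 15 did not, and among 162 values not called 146 kept direction and side, 7 passed and 9 reversed. Without TMM factors the median of all mRNAs moved from -0.04 to 0.25 on D4 and from 0.01 to 0.31 on D7.

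Of the 10 genes, 2 were called on D4 in the 2-group fit and 5 with no fold threshold, and on D7 the count was 1 with the 2-fold change tested, 1 without TMM and 4 with no fold threshold. Over all mRNAs, testing the 2-fold change left 1683 calls on D4, 1217 on D7 and 37 between D7 and D4, no fold threshold gave 6715, 5705 and 710, and DESeq2 gave 509 between D7 and D4. Of the pathway genes, 12 were called on D4 and 9 on D7 with the 2-fold change tested. Between D7 and D4 the pathway count was 1 with the 2-fold change tested, 4 in the 2-group fit, 6 by DESeq2 and 4 with no low-count filter. DESeq2 called 2 overlapping lncRNAs on D4. Reversed values were those of Lum on D4 (0.0041 in the 2-group fit and 0.24 without TMM) and on D7 (0.086 without TMM), Bgn on D4 (0.097 without TMM) and Vcan on D7 (0.041 without TMM).

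Leaving out 1 library at a time gave 1 to 2 of the 10 genes on D4, 1 to 3 on D7 and 0 to 1 between D7 and D4. The pathway counts were 21 to 27, 22 to 24 and 0 to 4, the overlapping lncRNA counts were 0 to 1, 0 to 1 and 0, and all mRNAs gave 2540 to 3437, 2284 to 2859 and 0 to 469. The 0 between D7 and D4 came without either D4 library (2054 and 2296 at an unadjusted edgeR p under 0.05), and without D7 rat a the count was 99. Signs reversed without control rat b for Bcan (range over the left-out libraries -8.03 to 0.86 on D4 and -2.17 to 2.09 on D7) and Bgn (-0.67 to 0.54 and -1.07 to 0.15), without D7 rat a for Vcan on D7 (-0.53 to 0.0078) and, between D7 and D4, for Acan (-1.23 to 0.19) and Dcn (-0.090 to 0.015), and without D7 rat b for Acan on D7 (-0.46 to 1.004) and for Ncan between D7 and D4 (-5.40 to 2.01). The cause was not tested.

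A replicate block on the letters gave 1, 2 and 0 calls among the 10 genes, 25, 23 and 3 among the pathway genes, and 3281, 2827 and 248 over all mRNAs for D4, D7 and D7 against D4. The rats share only a letter: same-letter deviations correlated at 0.01 (control and D4), 0.19 (control and D7) and -0.13 (D4 and D7). With the D4 letters exchanged, an alternative chosen after seeing the data, 334 mRNAs were called between D7 and D4.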

Other observations

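Several genes around the proteoglycans passed the threshold on D7 and not on D4. Lingo1, a partner of the Nogo receptor, stood at 1.01 and 1.27 in the control group, 1.05 and 1.26 in the D4 group, and 6.01 and 2.55 in the D7 group and was called higher on D7 (log2 fold change 1.91 ± 0.44, edgeR adjusted p = 0.018) but not on D4 (log2 fold change 0.03, edgeR adjusted p = 0.967). Rtn4r, the Nogo receptor, which also binds chondroitin sulfate chains, stood at 2.35 and 3.8 in the control group, 1.92 and 2.7 in the D4 group, and 0.74 and 1.16 in the D7 group and was called lower on D7 (log2 fold change -1.69 ± 0.39, edgeR adjusted p = 0.0179) but not on D4 (log2 fold change -0.41, edgeR adjusted p = 0.393). Tnr, tenascin-R, had counts of 235 and 51 in the control group, 52 and 25 in the D4 group, and 1 and 16 in the D7 group and was called lower on D7 (log2 fold change -4.19 ± 1.09, edgeR adjusted p = 0.0279) but not on D4 (log2 fold change -2.32, edgeR adjusted p = 0.0885). The differences between D7 and D4 were 1.89 (edgeR adjusted p = 0.0663) for Lingo1, -1.28 (edgeR adjusted p = 0.111) for Rtn4r and -1.86 (edgeR adjusted p = 0.362) for Tnr, so none is shown to differ between the days. Cemip, which binds and breaks down hyaluronan, was called higher on D4, with counts of 5 and 20 in the control group, 112 and 119 in the D4 group, and 17 and 29 in the D7 group (log2 fold change 2.64 ± 0.64, edgeR adjusted p = 0.0187). Its log2 fold change was 0.64 (edgeR adjusted p = 0.49) on D7 and -2.01 (edgeR adjusted p = 0.113) between D7 and D4. These genes were named after their values were seen.

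Dse, the epimerase that turns chondroitin into dermatan sulfate, stood at 8.63 and 9.33 in the control group, 5.05 and 4.27 in the D4 group, and 7.74 and 9.12 in the D7 group. Both D4 libraries lay below the rest (log2 fold change -0.95, edgeR adjusted p = 0.00239 on D4), and the difference between D7 and D4 passed the adjusted p under 2-fold (log2 fold change 0.85 ± 0.13, edgeR adjusted p = 0.0301). Fat cell markers varied widely between rats of a group: the summed level of 4 adipocyte markers was 315 and 253 in the control group, 72.6 and 35.4 in the D4 group, and 1.26 and 100.6 in the D7 group. The sum of 5 skeletal muscle markers ran from 1.29 to 27.4 over the libraries, with D4 rat a the highest.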
